A study of Mus musculus with 8 samples.

Results

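The genes described here encode the receptors for the neurotrophins and for the GDNF family of growth factors, with a pair of their ligands. They were chosen by name, not by a cut on measured values, but with earlier results of these data known. They are 7 receptor genes (Ntrk2, Ntrk3, Ngfr, Ret, Gfra1, Gfra2 and Gfra3) and 2 ligand genes (Bdnf and Ntf3). The table holds 36317 gene symbols, of which these are 9. Bulk RNA of the embryonic mouse brain or cord was sequenced as 8 libraries, 2 in each of 4 groups. These were wild-type (wt) forebrain at embryonic day (E) 13.5, wt spinal cord at E13.5, wt forebrain at E15.5, and forebrain of EED-cKO embryos at E15.5. In EED-cKO embryos the knockout of Eed depends on Cre recombinase under Sox1, a gene of neural progenitors, so cells without a Sox1 history should keep the gene. Whether the wt embryos carried Cre or a modified Eed allele, and whether a library is 1 embryo or a pool, is not given in the labels, and p-values therefore reflect no more than the spread of these libraries, which may be technical. EED belongs to the Polycomb complex PRC2, which methylates histone H3 at silenced genes.

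Neurotrophins are secreted proteins that act on neurons through TRK receptor tyrosine kinases: BDNF binds TRKB (from Ntrk2) and NT-3 (from Ntf3) binds TRKC (from Ntrk3). The p75 receptor (from Ngfr) binds all neurotrophins and their uncleaved precursors, has no kinase, and works with TRK receptors or with sortilin-type partners. GDNF family ligands bind a GFRA protein held to the membrane by a lipid anchor, and this pair then engages the receptor tyrosine kinase RET: GFRA1 prefers GDNF, GFRA2 neurturin and GFRA3 artemin. In the embryo, RET with its GFRA partners is known from spinal motor neurons, sensory and autonomic ganglia and the enteric nervous system, and TRKB and TRKC are widespread in central neurons. TRKB and TRKC are also made as truncated forms without a kinase, which a value per gene does not tell apart from the full forms.

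On GRCm38 (GENCODE vM21 annotation), Ntrk2 lies on chromosome 13 from 58806569 to 59133970 (+ strand) and Ntrk3 on chromosome 7 from 78175959 to 78738012 (- strand). Ngfr lies on chromosome 11 from 95568818 to 95587735 (- strand), and Ret on chromosome 6 from 118151745 to 118197718 (- strand). Gfra1 spans 58235604 to 58455909 on chromosome 19 (- strand) and Gfra2 spans 70890120 to 70979838 on chromosome 14 (+ strand). Bdnf spans 109674700 to 109727007 on chromosome 2 (+ strand), and Ntf3 spans 126101412 to 126166910 on chromosome 6 (- strand). Exons of Gfra1 and Bdnf overlap antisense genes, Gm16277 and Gm45346. Neither of these is among the table's symbols, and with unstranded reads their transcripts cannot be told apart from those of Gfra1 and Bdnf.

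PRC2 is known to gather at stretches rich in the base pair step CG around gene starts, so the DNA before the starts is shown for members that the later results contrast, a TRK receptor, p75 and both ligands. RefSeq promoter windows (GRCm38.p6) matched 5 of the 9 members, at 12 starts. Ntrk3, Ret, Gfra2 and Gfra3 were not matched. The printed stretches end before the first annotated exon of the transcript start concerned. They read 5′ to 3′ on the gene's strand, with every CG in capitals. CG reads the same on both strands.
Ntrk2 (chr13:58806319-58806471, + strand): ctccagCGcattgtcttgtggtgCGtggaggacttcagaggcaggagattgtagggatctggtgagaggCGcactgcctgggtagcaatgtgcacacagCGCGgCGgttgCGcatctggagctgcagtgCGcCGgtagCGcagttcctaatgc
Ngfr (chr11:95587736-95587948, - strand): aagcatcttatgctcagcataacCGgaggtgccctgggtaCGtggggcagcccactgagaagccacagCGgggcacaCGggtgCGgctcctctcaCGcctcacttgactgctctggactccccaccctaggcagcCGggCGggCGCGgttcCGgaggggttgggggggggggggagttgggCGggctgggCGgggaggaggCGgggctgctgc
Bdnf, most upstream start (chr2:109674450-109674699, + strand): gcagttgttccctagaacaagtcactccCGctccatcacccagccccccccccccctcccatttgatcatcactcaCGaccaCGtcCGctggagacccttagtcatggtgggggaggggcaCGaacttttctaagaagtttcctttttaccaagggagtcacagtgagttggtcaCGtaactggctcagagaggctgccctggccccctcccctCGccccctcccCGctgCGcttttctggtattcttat
Ntf3, start within the gene (chr6:126164961-126165210, - strand): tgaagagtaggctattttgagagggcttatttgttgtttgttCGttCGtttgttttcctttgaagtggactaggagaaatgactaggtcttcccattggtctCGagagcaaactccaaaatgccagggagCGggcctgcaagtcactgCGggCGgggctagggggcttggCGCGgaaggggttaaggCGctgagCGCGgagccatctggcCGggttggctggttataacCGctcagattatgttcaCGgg

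These stretches hold 10 CG in 153 bases for Ntrk2, 14 in 213 bases for Ngfr, 9 in 250 bases for Bdnf and 14 in 250 bases for Ntf3. Over the full 250 bases before the start, Ntrk2 had 19 CG and Ngfr 16, and 19.7% and 25.4% of all 32841 windows held as many or more. The median window held 6. The window of Gfra1, which lies mostly in annotated exons and is not printed, held 10 CG, matched or passed by 37.8% of windows. The 7 windows of Bdnf, a gene with many alternative starts, ranged from 1 to 13 CG, and the 2 of Ntf3 held 11 and 14. Ntrk2, Ngfr, Gfra1, Bdnf and Ntf3 thus each had at least 1 start with more CG than the median window. The files used here measure neither the histone mark nor DNA methylation at these starts.

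The deposited E15.5 values match the gene names only after the names are sorted alphabetically with case and hyphens ignored, as in all values below. This reassigned the E15.5 row of 4 members (Ntrk2, Ntrk3, Ngfr and Ntf3), whereas Ret, Gfra1, Gfra2, Gfra3 and Bdnf have the same row in both orders. The order was checked around each member by correlating the E13.5 with the E15.5 wt forebrain across the 101 names centred on it. In the restored order r ran from 0.774 around Ntf3 to 0.963 around Bdnf, and with the E15.5 rows shifted by 1 to 3 rows it ran from -0.129 to 0.268. These r values are across genes, which are not independent replicates.

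**Figure D1:**
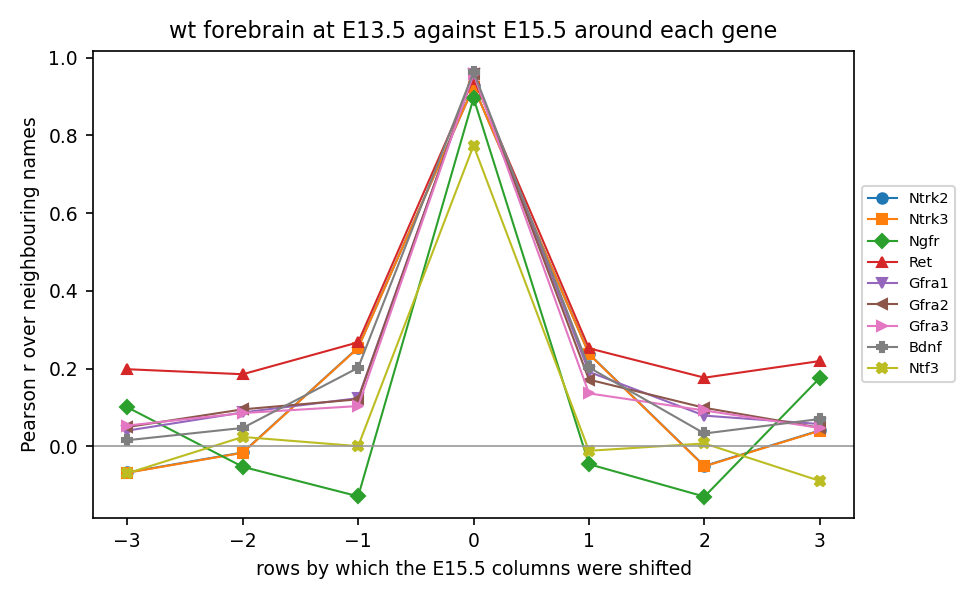
Pearson r across 101 gene names between E13.5 and E15.5 wt forebrain (y axis) against the shift of the E15.5 rows in rows (x axis), with 1 line for each of the 9 members. All lines peak at a shift of 0, between 0.774 and 0.963.

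The libraries were checked against their labels. Eed measured 25.8 and 27.9 RPKM (reads per kilobase of transcript, scaled to the mapped reads) in wt forebrain at E15.5 and 10 and 10.6 in EED-cKO, a log2 change of -1.30 ± 0.085 (limma, adjusted p = 8.65e-05). Emx1, a homeobox gene of the dorsal forebrain, measured 59.3 and 56.1 RPKM in E13.5 forebrain and 0.1 and 0 in cord. In EED-cKO forebrain it measured 9.1 and 7.5, against 36.5 and 50.2 in wt at E15.5. Forebrain markers did not all move this way: among 6 with Emx1, 3 were lower in EED-cKO, 2 were higher and 1 passed the test in neither direction. Transcripts of 6 Hox genes of the cord summed to 0 to 0.2 RPKM in all wt forebrain, 916.2 and 1121 in cord, and 40.3 and 43.8 in EED-cKO forebrain. The table holds no read counts, so the depth is unknown. Summed over all genes, RPKM came to 378294 to 397320 at E13.5 and 761647 to 843296 at E15.5, so levels at the 2 ages are set side by side and not tested.

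All 7 receptor genes were higher in EED-cKO than in wt forebrain at E15.5, and neither ligand gene passed the test in either direction. Gfra1 and Ngfr had the largest ratios of mean RPKM, 3.47 and 3.01, followed by Ret at 2.08, Ntrk2 at 1.80, Gfra2 at 1.76 and Ntrk3 at 1.41. Gfra3 rose from a level near the limit of the table. Calls are limma's on log2(RPKM + 1), with p-values adjusted by Benjamini-Hochberg across the 17022 genes tested and a threshold of 0.05. This is a scale that understates the change of low genes. Of all genes tested, 30.2% were called higher and 16.7% lower in EED-cKO (46.9% in either direction), against 7 of 9 members higher and none lower. All 9 members passed the filter of 1 RPKM in 2 libraries, but Gfra3 was below 1 RPKM in every wt forebrain library and passed only through the groups where it was high.

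The median log2 change was 0.90 over the 7 receptor genes and 0.85 over the 9 members, against 0.08 over all genes tested. All 7 receptor genes were higher in both EED-cKO libraries than in both wt libraries, and 42.6% of all genes tested were so too. Groups of 2 libraries cannot give a two-sided exact permutation p below 0.333, so the calls rest on limma, which pools the spread over all 8 libraries. In bulk tissue, fewer cells of a type and less RNA per cell cannot be told apart.

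**Figure D2:**
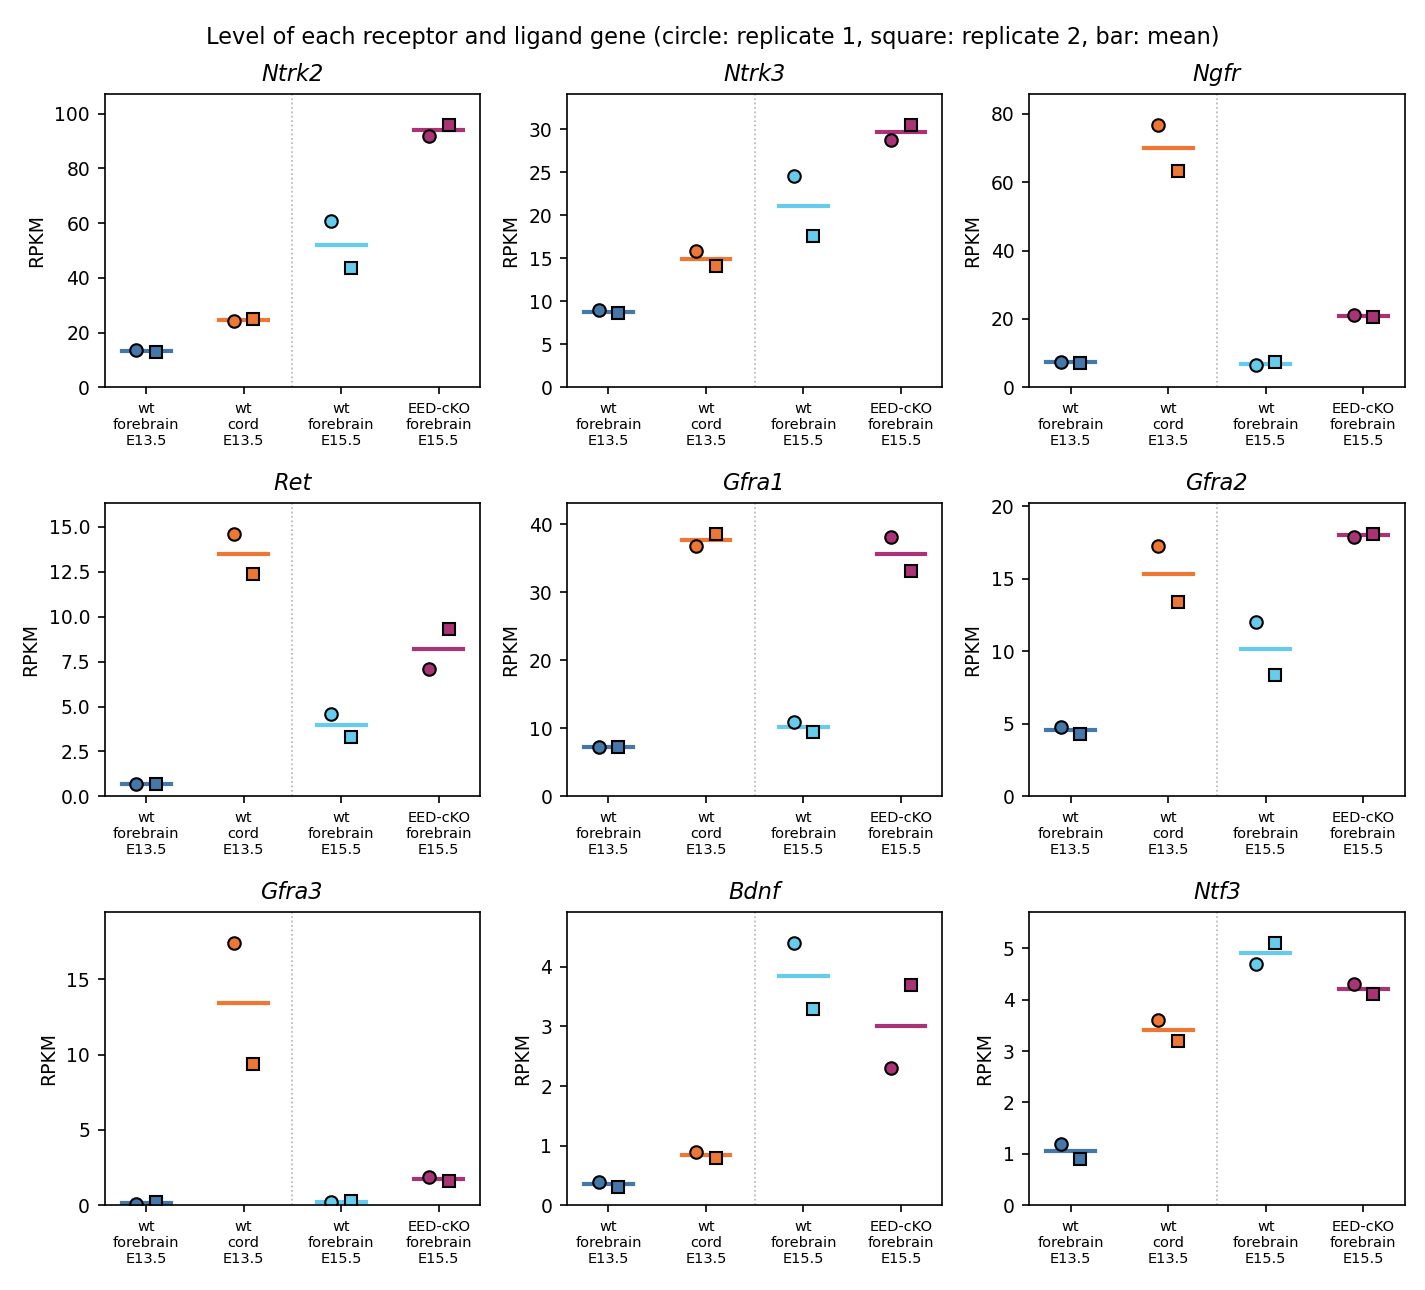
RPKM of the 9 members in each of the 8 libraries, on a linear scale, with points for single libraries and bars for group means. At E15.5 the EED-cKO points lie above the wt points for all 7 receptor genes, and those of Bdnf overlap.

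Among the TRK receptors, Ntrk2 was the most abundant member in E15.5 forebrain, at 60.7 and 43.6 RPKM in wt and 91.9 and 95.9 in EED-cKO. The lower EED-cKO library was above the higher wt library, and the means were 52.2 ± 12.1 and 93.9 ± 2.83 (SD, n = 2 each). The log2 change was 0.85 ± 0.14 (SE; limma, adjusted p = 0.00249). Ntrk3 measured 24.6 and 17.6 RPKM in wt and 28.8 and 30.5 in EED-cKO, so that the groups were apart but the gap between them was smaller than that between the wt libraries. Its change of 0.49 ± 0.14 was the smallest of the receptor genes (limma, adjusted p = 0.0286). The call of Ntrk3 did not hold without wt replicate 2, where the change was 0.26 (limma, adjusted p = 0.0624), nor without EED-cKO replicate 1 (adjusted p = 0.0947) or replicate 2 (adjusted p = 0.147), nor without replicate 1 (adjusted p = 0.0514) or replicate 2 (adjusted p = 0.0516) of wt E13.5 forebrain.

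Ngfr, the p75 receptor gene, measured 6.4 and 7.5 RPKM in wt and 21.2 and 20.6 in EED-cKO. The replicates of each genotype lay close together and the groups were far apart, with means of 6.95 ± 0.778 and 20.9 ± 0.424 (SD, n = 2 each). The log2 change was 1.47 ± 0.11 (limma, adjusted p = 0.000131), at the 97.9th percentile of all genes tested. The make-up of these 3 receptor genes can be read within each library, free of scaling between libraries. Ngfr made up 6.98% and 10.9% of the summed RPKM of Ntrk2, Ntrk3 and Ngfr in wt, and 14.9% and 14.0% in EED-cKO. Ntrk2 held a similar share throughout, at 66.2% and 63.5% in wt and 64.8% and 65.2% in EED-cKO, so the higher share of Ngfr came with a lower share of Ntrk3.

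Ret, the kinase of the GDNF receptor, measured 4.6 and 3.3 RPKM in wt and 7.1 and 9.3 in EED-cKO. The groups did not overlap, and the means were 3.95 ± 0.919 and 8.20 ± 1.56 (SD, n = 2 each). Ret rose by 0.90 ± 0.17 (limma, adjusted p = 0.00469), a call that did not hold with the 4 E15.5 libraries alone (adjusted p = 0.0573). Gfra1, the GDNF-binding co-receptor, measured 11 and 9.5 RPKM in wt and 38.1 and 33.1 in EED-cKO, well apart. It changed most among the members, by 1.70 ± 0.095 (limma, adjusted p = 5.35e-05), and lay at the 98.8th percentile of all genes tested. Its call held under all 20 alternative settings tried.

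Gfra2, the neurturin-binding co-receptor, measured 12.0 and 8.4 RPKM in wt and 17.9 and 18.1 in EED-cKO, with a change of 0.78 ± 0.17 (limma, adjusted p = 0.00923). The groups were apart, and the spread lay in the wt libraries. Its call did not hold without EED-cKO replicate 1 (adjusted p = 0.0554) or replicate 2 (adjusted p = 0.0640). Gfra3, the artemin-binding co-receptor, measured 0.2 and 0.3 RPKM in wt, only a few steps of 0.1 above 0, and 1.9 and 1.6 in EED-cKO. It rose by 1.14 ± 0.24 on the log2(RPKM + 1) scale (limma, adjusted p = 0.00787), a call that did not hold without EED-cKO replicate 1 (adjusted p = 0.0585). With a pseudocount of 0.1 in place of 1 its change was 2.41. The pooled error of Gfra3 takes in the wide spread of its 2 spinal cord libraries.

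Shares were also taken within the sum of Ret and all GFRA genes, with Gfra4, the gene of the persephin co-receptor, included. Gfra4 was the most abundant of them in wt E15.5 forebrain, at 18.3 and 18.9 RPKM, and at 19.5 and 19.8 in EED-cKO its change of 0.08 ± 0.12 was not called (limma, adjusted p = 0.637). The share of Gfra1 was 23.9% and 23.5% in wt and 45.1% and 40.4% in EED-cKO, where it was the most abundant. The share of Gfra4 was 39.7% and 46.8% in wt and 23.1% and 24.2% in EED-cKO. Gfra2 made up 26.0% and 20.8% in wt and 21.2% and 22.1% in EED-cKO, and Ret 9.98% and 8.17% in wt and 8.40% and 11.4% in EED-cKO, so both overlapped between the groups. Gfra3 was a small part throughout, at 0.434% and 0.743% in wt and 2.25% and 1.95% in EED-cKO. These shares are descriptions and were not tested.

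**Figure D3:**
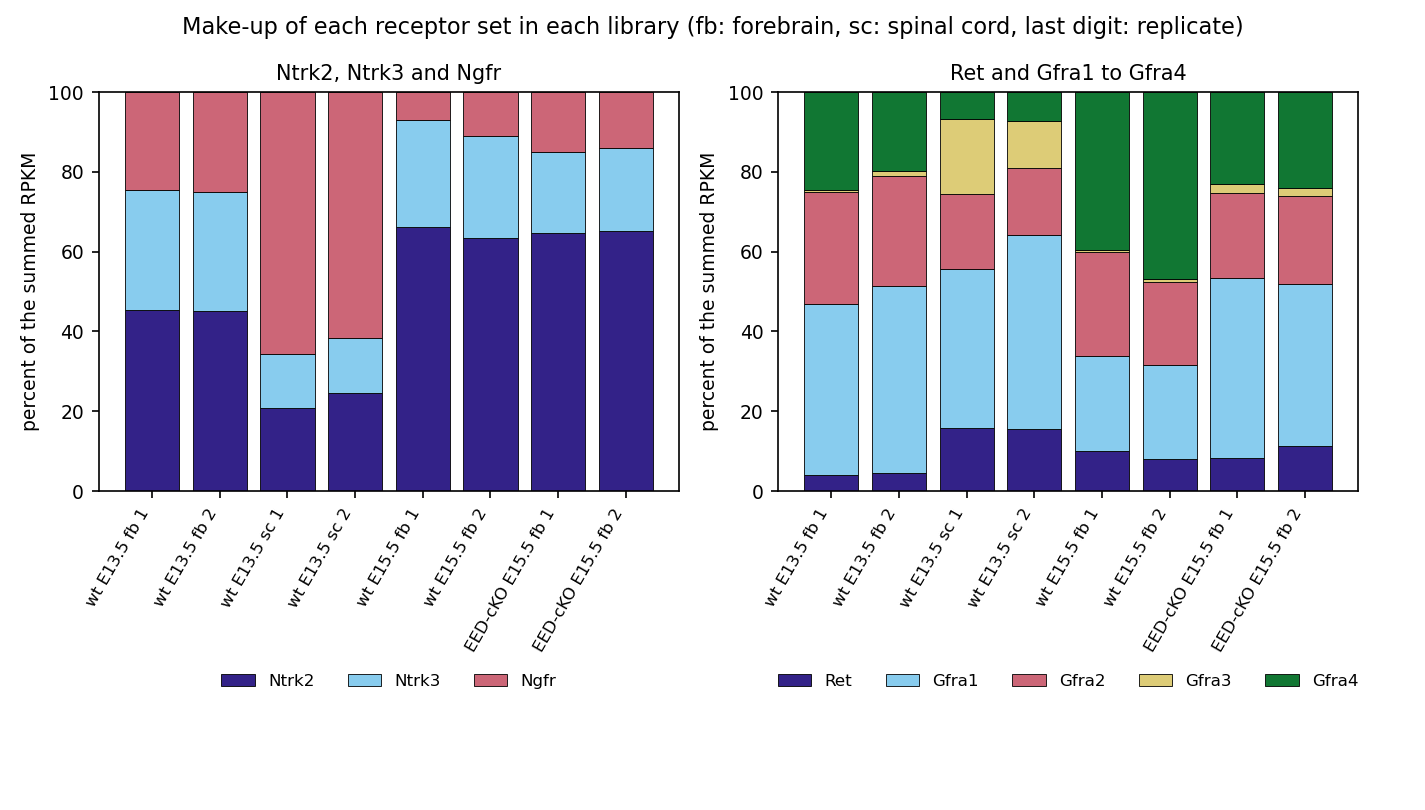
Percent of the summed RPKM taken by each gene, for Ntrk2, Ntrk3 and Ngfr (left) and for Ret and Gfra1 to Gfra4 (right), with 1 bar per library. Ngfr takes 61.7% and 65.6% in spinal cord, and Gfra1 takes more in EED-cKO than in wt forebrain at E15.5.

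The ligand genes were low in all groups. Bdnf measured 4.4 and 3.3 RPKM in wt and 2.3 and 3.7 in EED-cKO, and the groups overlapped. Its change was -0.29 ± 0.18 (limma, adjusted p = 0.229). Ntf3 measured 4.7 and 5.1 RPKM in wt and 4.3 and 4.1 in EED-cKO, so that both EED-cKO libraries were below both wt libraries by a small margin, as were those of 27.6% of all genes tested. Its change of -0.18 ± 0.11 did not pass the test (limma, adjusted p = 0.201). Under quantile normalization within an age both were called lower, Bdnf at -0.65 (limma, adjusted p = 0.0109) and Ntf3 at -0.54 (limma, adjusted p = 0.00723), while all 7 receptor genes were still called higher.

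That scaling also changed the background: calls were higher in EED-cKO for 64.5% of 7987 genes as reported, 52.5% after median ratio scaling and 44.9% after quantile normalization, and the median change of all genes moved from 0.08 to 0 and -0.05. The receptor genes kept their direction under each scaling.

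Wt E15.5 replicate 1 read higher than replicate 2 for 6 of the 9 members, and over all genes the difference moved with transcript length. The log2 difference was 0.47 for Ntrk2, 0.46 for Ntrk3, 0.47 for Gfra2, 0.38 for Ret, 0.33 for Bdnf and 0.19 for Gfra1. It was -0.20 for Ngfr, -0.12 for Gfra3 and -0.10 for Ntf3. Members of similar length could differ, as did Ngfr and Gfra2, with longest transcripts of 3446 and 3472 bases. Genes with a known length (92.9% of those tested) were cut by length into 4 equal parts. The median log2 difference was -0.13 in the part with the shortest transcripts and 0.25 in the longest part. The longest part, of at least 4685 bases, holds Ntrk2, Ntrk3 and Ret. The change between EED-cKO and wt had a median of 0 in the shortest part and 0.21 in the longest, where 36.7% of genes were called higher. The part of length in the changes of Ntrk2, Ntrk3 and Ret was not tested. Without wt replicate 2 these were 0.62, 0.26 and 0.71, and Ntrk2 (limma, adjusted p = 0.00202) and Ret (adjusted p = 0.0291) were still called.

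Markers of other cell types moved with the receptor genes, and their part in the result was not tested. Of 10 spinal motor neuron markers, 6 were higher in EED-cKO and none lower, and their summed level was 49.4 and 63.3 RPKM in wt and 79.3 and 83.4 in EED-cKO. These sums were mostly Isl1 and Foxp1, neither of which was called. Of the 6, Mnx1, Lhx3 and Lhx4 were listed at 0 in all wt forebrain libraries. A lower call could not arise for those genes. Isl2 (0.1 and 0.2 RPKM) and Slc5a7 (0.8 and 0.4) were below 1 RPKM in wt at E15.5 and had little room to fall. The defining motor neuron gene Mnx1 measured 6.3 and 5.2 RPKM in EED-cKO and was listed at 0 in wt, and Slc18a3 rose from 1.2 and 1.0 to 2.6 and 2.6. Chat, the gene of the enzyme that makes acetylcholine, was at 0.1 in wt and at 0.4 and 0.2 in EED-cKO and was not called (limma, adjusted p = 0.0752). Motor neurons are known to use RET and GFRA1.

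Of 15 sensory ganglion markers, 6 were higher and 1 was lower, with sums of 38.8 and 45.4 RPKM in wt and 78.2 and 79.7 in EED-cKO. Isl1, which was not called, made up most of the wt sums, at 32 and 27.5 RPKM, and measured 45.2 and 36 in EED-cKO. Runx3 and Tlx3, called higher, were at 0 and 0.1 RPKM in wt, so a lower call could not arise for them. Of their defining genes, Avil stayed under 1 RPKM, and Prdm12 fell from 3.4 and 3.0 to 1.4 and 1.3. Of 7 Schwann cell and neural crest markers tested, 2 were higher and 3 lower. Their sums of 1165.1 and 1265.2 RPKM in wt and 1006.5 and 1029 in EED-cKO were mostly Fabp7. All 11 mesenchyme markers were higher (sums of 279.8 and 364.5 RPKM against 1082 and 1217.6), as were all 7 endothelial and 6 of 7 pericyte markers. All 9 markers of cortical glutamatergic neurons were lower, with sums of 1043.1 and 1094.3 RPKM in wt and 122.6 and 125.7 in EED-cKO. Skeletal muscle transcripts stood out in EED-cKO replicate 2, at 90.1 RPKM against 6.6 in replicate 1. Without that library 5 of the 7 receptor genes were still called, all but Ntrk3 and Gfra2.

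The rest of both signalling pathways moved less evenly than the receptor genes. Of 7 other ligand genes, 4 were tested and 2 were called higher. Nrtn, the gene of the GFRA2 ligand neurturin, measured 1.8 and 2.0 RPKM in wt and 9.4 in both EED-cKO libraries (log2 change of 1.84 ± 0.12). Gdf15, a distant relative that acts through RET in the hindbrain, measured 0.2 and 0.1 RPKM in wt and 1.2 and 1.1 in EED-cKO. It passed the filter on low values only through the EED-cKO libraries, so a call in the other direction could not arise. Gdnf, Artn and Ntf5 stayed below 1 RPKM in every library and were not tested.

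Of 12 other receptor and co-receptor genes tested, 5 were higher and 1 lower, with a median change of 0.35. The sortilin-family genes Sorcs1, Sorcs2 and Sorcs3 rose by 1.01, 0.90 and 0.64, and Ncam1, an alternative GDNF receptor that works with GFRA1, rose by 0.71. The lower gene was Nradd, a p75 relative, at 12.7 and 17.3 RPKM in wt and 11.7 and 9.8 in EED-cKO. Of 33 adaptor and signal transducer genes, 6 were higher and 4 lower, and the median change of 0.03 was close to that of all genes. Grb7, Grb10 and Shc1, whose proteins dock on active receptor tyrosine kinases, rose by 1.36, 1.01 and 0.92. Grb7 measured 0.8 and 0.5 RPKM in wt and 2.5 and 4.1 in EED-cKO, and would not have passed the filter on low values without the EED-cKO libraries. Dok5, whose protein docks on RET and TRK receptors, fell from 58.9 and 59.4 RPKM to 25.1 and 27.5.

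Of 12 genes for the cleavage and release of neurotrophins, 7 were higher and none lower, with a median of 0.59. They included the matrix proteases Mmp2 (1.35) and Mmp9 (0.98), the proprotein convertase Pcsk6 (0.92) and Plat (0.85), which makes the tissue plasminogen activator. Mmp2 is also a gene of mesenchyme. Of 20 feedback and target genes tested, 6 were higher and 5 lower. Mef2c, a transcription factor gene of cortical neurons, fell from 58.5 and 47.6 RPKM to 11.3 and 12.1. Npy fell by 1.32. Egr3 fell by 0.89 and Fos rose by 0.84, but Egr3 passed the filter only through the wt and Fos only through the EED-cKO libraries at E15.5.

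**Figure D4:**
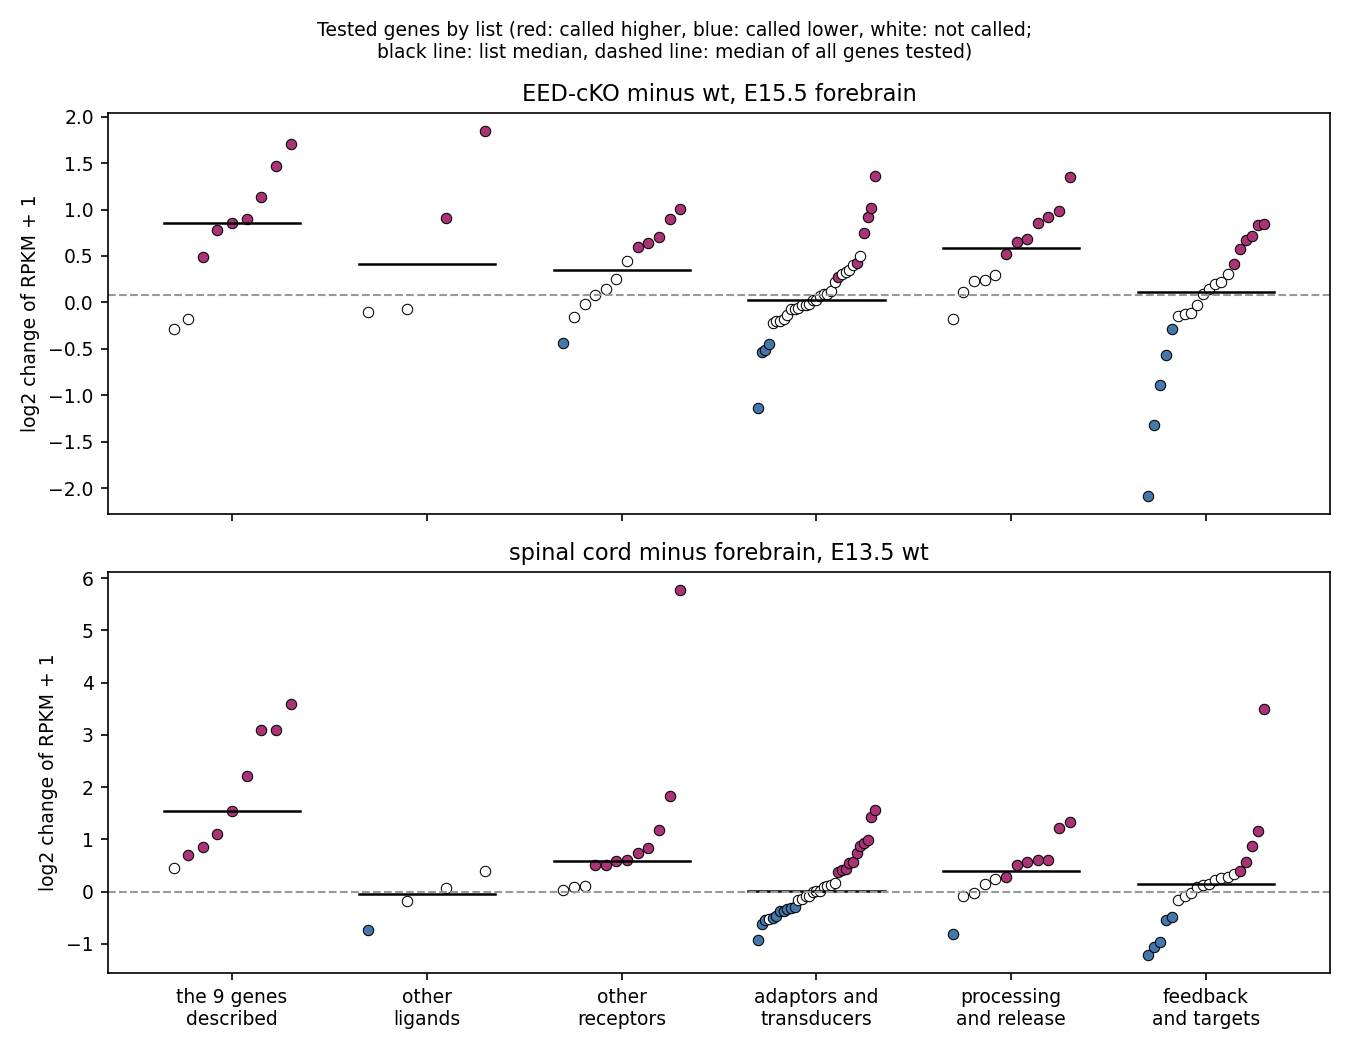
Log2 change of each tested gene in the members and in 5 lists of the same pathways (points), for EED-cKO against wt at E15.5 and for spinal cord against forebrain at E13.5, with the median of each list and of all genes. The members' medians are 0.85 and 1.55. The adaptor medians are 0.031 and 0.004, with single adaptor genes well above and below 0 in both comparisons.

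At E13.5, 8 of the 9 members were higher in wt spinal cord than in wt forebrain, with Bdnf not called, against 21.8% of all genes tested called higher and 23.9% lower (45.7% in either direction). Ngfr stood out among the abundant members with a ratio of means of 9.58, followed by Gfra1 at 5.16, Gfra2 at 3.37, Ntf3 at 3.24, Ntrk2 at 1.86 and Ntrk3 at 1.70. Ret and Gfra3 were below 1 RPKM in forebrain and well above it in cord. The median log2 change was 2.22 over the 7 receptor genes and 0 over all genes tested. In all 9 members both cord libraries were above both forebrain libraries, as they were for 37.0% of all genes tested, with the reverse in 39.3%.

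Ntrk2 measured 13.6 and 13.0 RPKM in forebrain and 24.4 and 25.1 in cord, a change of 0.85 ± 0.14 (limma, adjusted p = 0.00226). Ntrk3 measured 9.0 and 8.6 RPKM in forebrain and 15.8 and 14.1 in cord, a change of 0.70 ± 0.14 (limma, adjusted p = 0.00670). The call of Ntrk3 did not hold without cord replicate 1 (adjusted p = 0.0514). Both TRK genes were thus higher in cord by similar amounts and with little spread. Ngfr measured 7.4 and 7.2 RPKM in forebrain and 76.7 and 63.2 in cord, the highest level of any member at E13.5. Its change of 3.09 ± 0.11 (limma, adjusted p = 3.31e-06) lay at the 99.6th percentile of all genes tested. Ngfr took 24.7% and 25% of the sum of Ntrk2, Ntrk3 and Ngfr in forebrain and 65.6% and 61.7% in cord, where Ntrk2 took only 20.9% and 24.5%.

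Ret measured 0.7 RPKM in both forebrain libraries and 14.6 and 12.4 in cord, a change of 3.09 ± 0.17 (limma, adjusted p = 1.84e-05). Gfra1 measured 7.3 RPKM in both forebrain libraries and 36.8 and 38.6 in cord, a change of 2.22 ± 0.095 (limma, adjusted p = 7.61e-06). E13.5 forebrain thus held transcripts of the GDNF co-receptor with little of the kinase, Ret being 4.09% and 4.49% of the sum of Ret and the GFRA genes there and 15.8% and 15.6% in cord. Gfra2 measured 4.8 and 4.3 RPKM in forebrain and 17.3 and 13.4 in cord, a change of 1.55 ± 0.17 (limma, adjusted p = 0.000403). Gfra3 measured 0.1 and 0.2 RPKM in forebrain and 17.4 and 9.4 in cord, a change of 3.59 ± 0.24 (limma, adjusted p = 4.09e-05). On the log2 scale the 2 cord libraries differed more for Gfra3 than for any other member, and it was 18.8% and 11.8% of that sum there.

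Ntf3 measured 1.2 and 0.9 RPKM in forebrain and 3.6 and 3.2 in cord, a change of 1.10 ± 0.11 (limma, adjusted p = 0.000212). NT-3 is known as a survival factor of proprioceptive sensory neurons. Bdnf measured 0.4 and 0.3 RPKM in forebrain and 0.9 and 0.8 in cord, apart but all below 1 RPKM. Its change of 0.46 ± 0.18 was not called (limma, adjusted p = 0.0799). Bdnf was called with a pseudocount of 0.1 (change of 1.09, adjusted p = 0.0142) or 0.5 (adjusted p = 0.0386), with the 4 E13.5 libraries alone (adjusted p = 0.0143), and without EED-cKO replicate 1 (adjusted p = 0.0371) or replicate 2 (adjusted p = 0.0366).

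**Figure D5:**
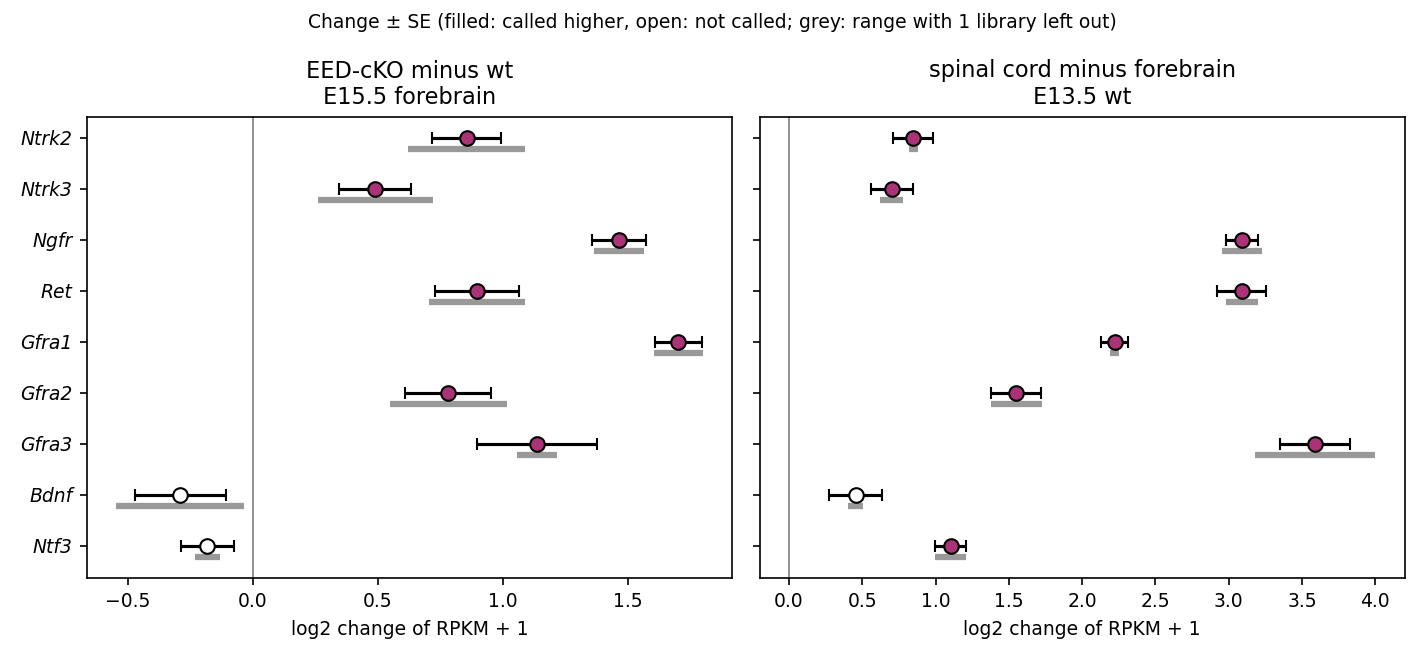
Log2 change with its standard error for each member, for EED-cKO against wt forebrain at E15.5 and for spinal cord against forebrain at E13.5, marked by whether it was called. All 7 receptor genes are called higher in both comparisons, and Ntf3 is called in the regional comparison only.

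Genes that mark sensory ganglia, which lie beside the cord and may be part of the dissections, were higher in the cord libraries. Several of them, such as Prdm12, Isl1 and Tlx3, are also genes of cord neurons. Of 15 sensory ganglion markers, 13 were higher in cord, and their summed level was 463.8 and 619.6 RPKM against 69.8 and 71.7 in forebrain. Both cord libraries were far above both forebrain libraries. Some of the 13, such as Avil and Trpv1, passed the filter only through the cord, so a lower call could not arise for them. Tlx3 and Runx3 were at 0.1 RPKM or less in forebrain. Avil measured 0.4 and 0.3 RPKM in forebrain and 14.4 and 9.3 in cord, and Prdm12 measured 2.9 and 3.0 and then 14.8 and 9.1. Schwann cell and neural crest markers were higher in 6 of 7 tested, with sums of 436.1 and 469.9 RPKM in forebrain and 878.1 and 904.3 in cord. These sums are mostly Fabp7, also a gene of radial glia, which measured 452.1 and 418.1 RPKM in forebrain and 780 and 830.2 in cord. Sox10, a neural crest and glial gene, measured 1.9 and 1.5 in forebrain and 25 and 16.2 in cord. Spinal motor neuron markers were higher in 9 of 10, with sums of 64.3 and 68.4 RPKM in forebrain and 303.6 and 380.8 in cord. Of the 9, Mnx1, Chat, Lhx3 and Lhx4 were listed at 0 in forebrain, so a lower call could not arise for them either. Slc18a3 (0.1 and 0.1 RPKM), Isl2 (0.2 and 0.2) and Slc5a7 (0.5 and 0.4) were also below 1 RPKM in forebrain. No gene of these 3 lists was at 0 in either cord library.

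The 2 cord libraries differed in these markers and in some members. Sensory ganglion markers were higher in replicate 1 than in replicate 2 for 14 of 15, with a median log2 difference of 0.39, whereas 5 of 10 motor neuron markers were higher and 5 lower, with a median of 0.01. The lists share Isl1 and Prph, which make up most of the motor neuron sum in cord and were higher in replicate 1 by 0.39 and 0.35. Among the members, Gfra3 differed by 0.82, and the ganglion markers ranged from -0.03 (Runx3) to 0.76 (Trpv1). Gfra2 differed by 0.35, Ngfr by 0.28 and Ret by 0.22, while Ntrk2 and Gfra1 differed by -0.04 and -0.07. All genes tested had a median difference of 0. These are differences between single libraries and were not tested, and the part of ganglion RNA in the cord levels of the members was not tested either. Without cord replicate 1 the change of Gfra3 was 3.18 and was still called.

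In the other pathway genes, 9 of 12 receptors and co-receptors were higher in cord and none lower, with a median change of 0.59. They included Lingo1, a p75 co-receptor gene (1.82), Ncam1 (1.18) and Sorcs3 (0.84). Of the 4 other ligand genes tested, Nrtn alone was called, and it fell by 0.74. Of 33 adaptor genes, 11 were higher and 10 lower. Shc2, Dok5 and Shc4 rose by 1.57, 1.43 and 0.99 and Grb10 fell by 0.94. Of the processing and release genes, 7 were higher and 1 lower: Pcsk2, Cadps and Mmp9 rose by 1.34, 1.22 and 0.61, and Pcsk6 fell by 0.82. Of 20 feedback and target genes, 5 were higher and 5 lower, led by Npy (3.51) and Etv4 (1.17), an ETS factor gene induced by GDNF in motor neurons, and by Spry1 (-1.21) and Arc (-1.07).

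The order of the 4 groups differed between members, and across the 2 ages it depends on the scale. In RPKM as deposited, Ngfr, Ret, Gfra1 and Gfra3 had their highest means in cord and their second highest in EED-cKO forebrain, and this also held with each library divided by its summed RPKM. Gfra1 in cord (36.8 and 38.6 RPKM) and in EED-cKO forebrain (38.1 and 33.1) overlapped as deposited, as did Ngfr and Gfra3 between wt forebrain at the 2 ages. Ntrk2, Ntrk3 and Gfra2 were highest in EED-cKO forebrain in RPKM, but per summed RPKM Ntrk3 and Gfra2 were highest in cord. Bdnf was highest in wt E15.5 forebrain on both scales and overlapped there with EED-cKO, whereas Ntf3 was highest there in RPKM and in cord per summed RPKM. The full order was the same on both scales for 3 members (Ngfr, Ret and Bdnf) and differed for 6. Ntf3 made up 75% of the summed Bdnf and Ntf3 transcripts in both E13.5 forebrain libraries and 80% in both cord libraries, but 51.7% and 60.7% in wt and 65.2% and 52.6% in EED-cKO forebrain at E15.5.

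For each member the genes with the most similar pattern were taken by Pearson r of log2(RPKM + 1) over 8 libraries, after the mean of each age was removed, among 13155 genes. The 4 groups and the shared libraries set most of such a pattern, so r is a description. For Ngfr they were Tlx3 (r = 0.999), a homeobox gene of dorsal horn and sensory neurons listed at 0.1 RPKM in all wt forebrain and at 7.0 and 6.3 in EED-cKO, and Emc9 (0.998). For Gfra1 they were Lhx4 (0.999), a homeobox gene of motor neurons and ventral interneurons, and Chrna3 (0.999), a nicotinic receptor subunit gene. Lhx4 was listed at 0 in all wt forebrain and measured 2.8 and 2.3 RPKM in EED-cKO. For Ret they were the intermediate filament genes Synm (0.999) and Nefh (0.998), and for Gfra3 they were Gal (0.999), which encodes the neuropeptide galanin, and Kcnj12 (0.999), a potassium channel gene. The nearest genes were Bicd1 and Dtx4 for Ntrk2, Rapgef6 and Bend4 for Ntrk3, Pdzd7 and Jup for Gfra2, and Impdh1 and Aplp1 for Ntf3, all at r of at least 0.996. Bdnf had the loosest neighbours, Hps3 (0.989) and Fbxw11 (0.975).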

How the data were processed

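Libraries were made from total RNA with an unstranded kit and sequenced as single reads of 50 bases, per the labels' protocols. The authors deposited RPKM values, rounded to 0.1, for 36333 rows and 8 libraries. The aligner and counting tool are not given in the sources used here, and the submitters' processing notes name mm9 and GRCm38 without a role. No counts are held, so no count test or counting interval could be made. Names of the E15.5 columns were restored as described. For duplicated symbols the row of highest mean was kept. Genes at 1 RPKM or more in at least 2 libraries (17022) were fitted as log2(RPKM + 1) with 4 group means in limma 3.58.1 (R 4.3.3; two-sided moderated test with a mean-variance trend, 4 residual degrees of freedom), and p-values were adjusted by Benjamini-Hochberg over all of them for each comparison. Alternatives were other pseudocounts, filters, scalings, row orders, sample sets, a replicate block and each library left out.

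The members and lists were chosen with earlier results of these data known, so nothing here is independent support for a pattern seen in them before. The text names all 9 members, Eed, up to 4 called genes of largest change per list and comparison, the first 3 and the most abundant markers of each marker list, and the 2 genes most like each member. Genes named outside this rule (Gdnf, Artn, Ntf5, Gfra4, Nradd, Runx3, Trpv1, Lhx3, Isl2 and Slc5a7) were chosen after their values were seen. Some genes that the rule names are not reported here. Drgx, listed as a ganglion marker, was not matched. Gene models came from GENCODE vM21 and promoter windows from RefSeq. Python 3.11.15 with pandas 2.3.3 was used for tables, and matplotlib 3.10.9 for figures.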

Additional observations from a re-analysis of the deposited data

How the results depend on the processing

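Of 352 alternative values for the single members over both comparisons, 329 kept their direction and side of the threshold, 15 lost the call, 7 gained it and 1 reversed. The reversal was Ntrk3 in EED-cKO against wt in the deposited row order (-0.29). In that order Ntrk2 is listed at 0 in all E15.5 libraries, and Ngfr at 0 or 0.2 RPKM. In the knockout comparison 7 members were called. There were 4 called with only the 4 E15.5 libraries, where Ntrk3, Ret and Gfra2 lost the call (adjusted p = 0.133, 0.0573 and 0.0600), 4 in the deposited order, and 4 of the 5 members whose row is the same in both orders. Ntrk3 also lost the call with no filter on low values (adjusted p = 0.0765). Leaving out each library in turn gave 4 to 7 members called (4 without EED-cKO replicate 1) and 4468 to 9580 genes (5078 without EED-cKO replicate 1 and 4468 without replicate 2). With the 4 libraries alone 4777 genes were called, and with genes of unmoved row only, 4929.

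In the regional comparison 8 members and 7784 genes were called. With genes of unmoved row only these were 4 of 5 members and 4792 genes. Leaving out each library gave 7 to 9 members and 5176 to 9309 genes (5176 without replicate 2 of wt E13.5 forebrain). The labels do not say that replicate numbers pair libraries. Replicate 1 deviations correlated across genes between groups with r from -0.124 to 0.211. With a replicate block 7 and 8 members and 7608 and 7466 genes were called. With 2 libraries a group, unknown depth and steps of 0.1 RPKM, changes of members below 1 RPKM (Bdnf at E13.5, Gfra3 in wt forebrain) depend on the pseudocount.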

Other observations

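RET is also known to act in autonomic and enteric neurons. Of 8 markers of these, 4 were tested, and 3 of the 4 were called higher in cord and none lower, and 3 higher and 1 lower in EED-cKO. Ednrb, an endothelin receptor gene of neural crest and glia, measured 74.3 and 66.2 RPKM in cord and 30.3 and 32.4 in E13.5 forebrain. Dbh, the gene of the noradrenaline enzyme, was listed at 0 in all 8 libraries. Phox2a, called higher in both comparisons, measured 2.9 and 3.5 RPKM in cord and 0.4 in both EED-cKO libraries. In all wt forebrain it was at 0.1 RPKM or less. Phox2a passed the filter on low values only through the cord, so a lower call could not arise in either comparison. Th, the gene of the enzyme that starts catecholamine synthesis, was higher in cord (25.6 and 18.3 RPKM against 3.9 and 4.3 in forebrain; limma, adjusted p = 7.60e-05). Hand2, a transcription factor gene of sympathetic neurons, heart and limb, measured 22.8 RPKM in each EED-cKO library and was listed at 0 in the other 6, so it passed the filter on low values only through the EED-cKO libraries.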
